A study of Mus musculus with 4 samples.

Results

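The mitochondrial carrier family, named Slc25 in the mouse, was examined in bone marrow derived macrophages with and without PP2ACα, the catalytic alpha subunit of the serine/threonine phosphatase PP2A. Members were taken as the genes whose symbol in the platform's probe annotation starts with Slc25a and a digit and which have a feature annotated to that symbol alone. There were 46 such genes among the 22180 named on the array, each with 1 feature. The values came from 4 whole-transcript arrays of macrophages grown from marrow for 6 days in RPMI medium with L-cell supernatant, a source of macrophage growth factor. All cells had been given 100 ng/ml of lipopolysaccharide (LPS), the bacterial cell wall component sensed by Toll-like receptor 4, for 2 hours. Control cells carried floxed PP2ACα alleles alone (PP2ACαfl/fl, 2 arrays), and knockout cells also had a Cre recombinase for myeloid cells (PP2ACαfl/fl;lyM-Cre, 2 arrays), which removes exon 1 of the gene in cells where Cre is active. The replicates are labelled biological. Strain, age and whether the replicates came from separate mice are not given in the sources used here, so p-values measure the spread between these arrays. No array of unstimulated cells was analysed here, so the comparison is of LPS-treated cells only.

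Mitochondrial carriers are proteins of the inner mitochondrial membrane that exchange nucleotides, organic acids, amino acids, phosphate, cofactors and metal ions between the cytosol and the matrix. They are made in the cytosol and inserted with the help of the TOM complex, small chaperones of the intermembrane space and the TIM22 complex. In macrophages they are known for linking glucose breakdown to fatty acid synthesis through citrate export, and for supplying ATP to the cytosol.

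The check of the targeted gene came first. Ppp2ca stood at 8.25 and 7.59 log2 units on the control arrays and at 4.36 and 3.39 on the knockout arrays, a difference of -4.04 (limma adjusted p = 0.0076). Array medians were between 3.50 and 3.57 log2 units, and pairs of arrays correlated over all features at r = 0.986 to 0.990. All 9 macrophage markers were tested. Fcgr1 rose by 0.94 log2 units, and Lyz2, the lysozyme gene at the locus of the Cre, fell by 5.19. The other 7 did not pass. Among them Adgre1, Csf1r and Cd68 read between 11.23 and 11.97 log2 units on every array. The Cre was carried by the knockout cells only, so its effects and those of PP2ACα loss cannot be told apart. All 4 monocyte markers with a feature changed: Ly6c2 rose by 0.76, Ccr2 by 0.83 and Ms4a4c by 1.50, and F13a1 fell by 0.79, so that their summed linear signal was 1171 to 1281 in control and 1200 to 1255 in knockout. The summed signal of 8 markers of neutrophils and their precursors was 572 to 622 in control and 363 to 396 in knockout; Mmp8 alone of the 4 tested fell, by 0.84, while S100a9, Mpo and Ltf differed by 0.11, 0.26 and 0.34 without passing. The summed signal of 5 dendritic cell markers was 260 to 275 in control and 82.0 to 83.0 in knockout. The fall of this sum follows Itgax, which read 7.87 and 7.77 in control and 5.35 and 5.22 in knockout, a fall of 2.54. Flt3, the other marker of this list that was tested, differed by 0.16 without passing. Zbtb46, Xcr1 and Siglech were below the level required for testing, with differences of 0.04, -0.12 and 0.18. None of the 3 B cell markers with a feature reached the level required for testing. Of the erythroid and megakaryocyte markers 2 were tested. Ppbp fell by 0.45 (limma adjusted p = 0.043), and Pf4 differed by -0.19 without passing. None of the 2 tested T and NK cell markers or the 2 tested stromal cell markers passed. The part of these markers in the results below was not tested.

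Of the 46 carriers, 35 had a mean over the 4 arrays at or above 3.53 log2 units, the median over all features, and were tested. Slc25a5, which encodes the ADP/ATP carrier ANT2, fell in the knockout. The other 34 did not pass (limma, Benjamini-Hochberg adjusted p under 0.05 over all 12542 tested genes). No carrier rose. The 1 fall among 35 compares with 3.49% of all tested genes called lower, and the 0 rises with 3.3% called higher, so the share of carriers called was not above that of the array as a whole; 6 of the 35 had an unadjusted limma p under 0.05, 4 higher and 2 lower, against 24.7% of all tested genes in either direction. Differences of the tested carriers ran from -0.55 to 0.39 log2 units with a median of -0.03, beside a median of 0.01 over all tested genes. In size, without regard to sign, the median difference was 0.16 log2 units for carriers and 0.15 for all tested genes.

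The precision allowed most carriers to be bounded. For 33 of the 35 the unadjusted 95% interval of the difference lay within 1.5-fold in either direction, the cutoff that the series' design text applies to its gene list. The intervals of the other 2 carriers, Slc25a5 and Slc25a20, crossed that line, the former downward and the latter upward. Over the whole array, 9372 of 12542 tested genes had an interval within 1.5-fold. No carrier's group means were 1.5-fold apart, against 5.24% of all tested genes. At the median standard error of the carriers, 0.09 log2 units, a difference of about 0.46 was needed to pass in this fit; a gene with a smaller standard error could pass with less.

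**Figure D1:**
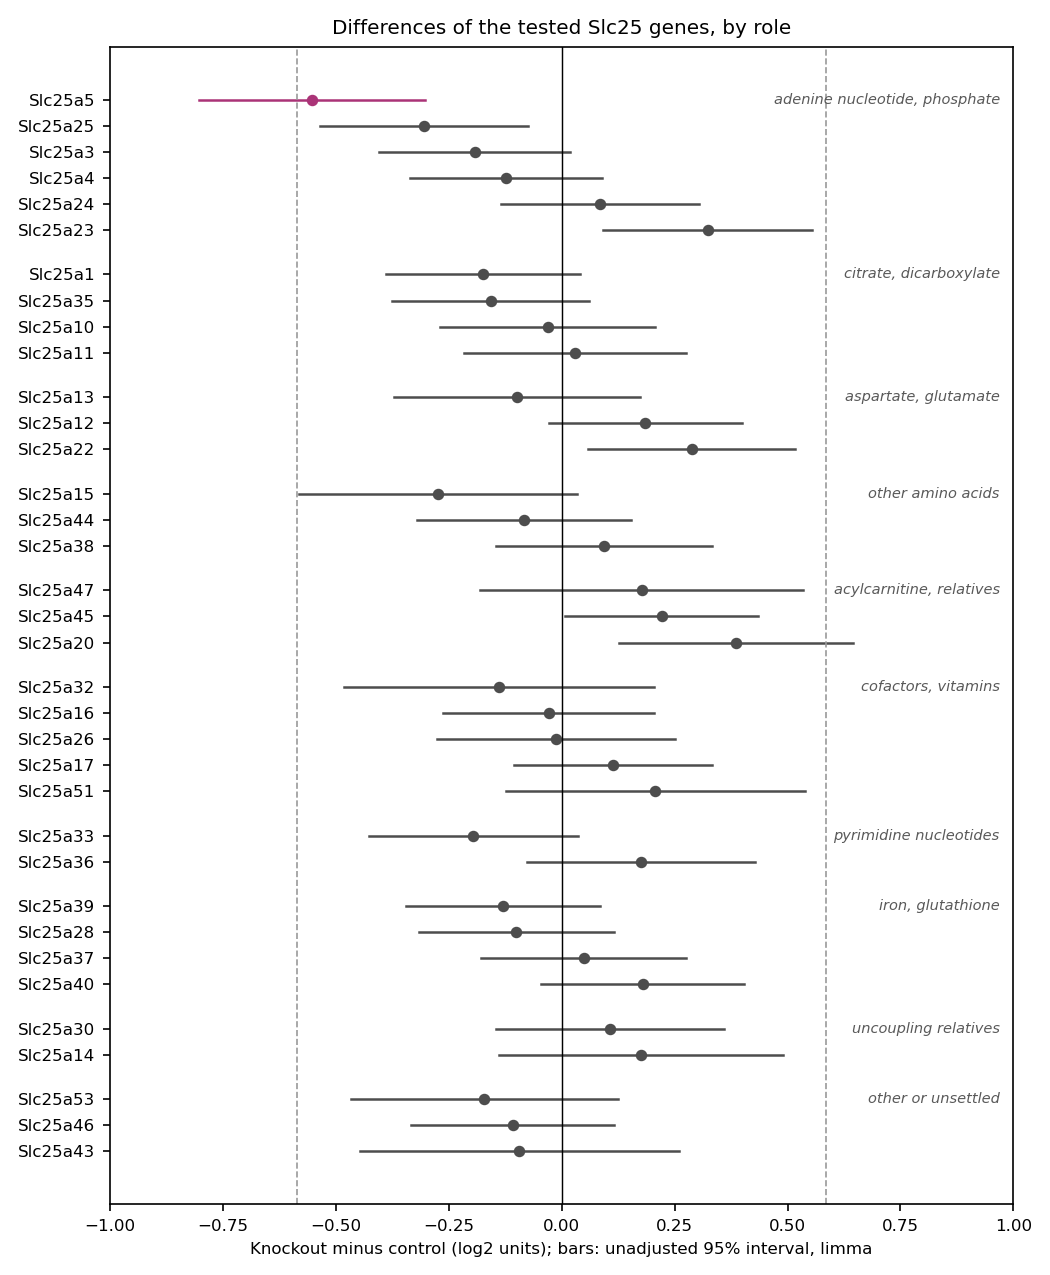
Difference between knockout and control (log2 units, horizontal axis) of the 35 tested Slc25 genes, ordered by role, with unadjusted 95% intervals from limma as bars and dashed lines at 1.5-fold. Slc25a5, drawn in purple at -0.55, is the lone gene past the adjusted threshold, and the intervals of 33 genes lie between the dashed lines.

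The ADP/ATP carriers exchange ATP made in the matrix for cytosolic ADP. Slc25a5 read 10.37 and 10.21 log2 units on the control arrays and 9.79 and 9.69 on the knockout arrays. Both knockout arrays lay below both control arrays, with a gap wider than the spread within either group. The means were 10.29 ± 0.11 and 9.74 ± 0.07 (SD, n = 2 each), a difference of -0.55 (SE 0.10, 95% interval -0.80 to -0.30, limma adjusted p = 0.038), or 1.47-fold lower. With any 1 of the 4 arrays left out, the difference was between -0.63 and -0.48 and the adjusted p between 0.082 and 0.21, so the call was lost each time. In those fits the lone array of a group is assumed to vary like the other group, and 96 to 174 genes passed over the whole array, against 852 with all 4. Without the filter on low values the adjusted p was 0.089.

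Slc25a4, which encodes the heart and muscle form ANT1, read 9.42 and 9.41 in control and 9.27 and 9.32 in knockout. Its groups did not overlap either, but the difference of -0.12 (SE 0.08, 95% interval -0.34 to 0.09, limma adjusted p = 0.43) did not pass. The intervals of Slc25a4 and Slc25a5 overlapped, and the difference between them was not tested. Probes of such close relatives may read each other's transcripts. Slc25a31, the germ cell form, was below the tested level at 2.42, 2.69, 2.62 and 2.66 on control replicates 1 and 2 and knockout replicates 1 and 2. Slc25a5 lies beside Slc25a43 on the X chromosome of the RefSeq assembly, and Slc25a43 differed by -0.09 (adjusted p = 0.73) with overlapping groups.

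Since Slc25a5 was the carrier that passed, the 250 bases before its start site are shown from RefSeq (GRCm38.p6, chrX:36795347-36795596, plus strand); no capitals appear because none of the motifs searched for and named below was found in it.
Slc25a5: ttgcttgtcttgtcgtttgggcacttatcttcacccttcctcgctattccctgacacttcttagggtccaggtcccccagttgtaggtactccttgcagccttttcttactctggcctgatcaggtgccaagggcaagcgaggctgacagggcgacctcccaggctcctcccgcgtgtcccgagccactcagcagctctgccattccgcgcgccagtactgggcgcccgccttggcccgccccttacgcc

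The phosphate carrier and the calcium-regulated ATP-Mg/phosphate carriers set the matrix content of phosphate and adenine nucleotides. Slc25a3, the phosphate carrier, which also brings copper to cytochrome oxidase, read 8.76 and 8.73 in control and 8.54 and 8.57 in knockout, a difference of -0.19 (adjusted p = 0.24). Slc25a25 read 6.75 and 6.62 in control and 6.38 and 6.38 in knockout, a difference of -0.31 (SE 0.09, 95% interval -0.53 to -0.08, limma adjusted p = 0.12). Its relative Slc25a23 lay the other way, at 6.56 and 6.45 in control and 6.80 and 6.87 in knockout, a difference of 0.32 (SE 0.09, 95% interval 0.09 to 0.55, limma adjusted p = 0.10). The groups were apart for both genes and the unadjusted intervals did not overlap, although neither passed over all genes. Slc25a24, the remaining calcium-regulated form above the tested level, read 9.65 and 9.58 in control and 9.68 and 9.72 in knockout, a difference of 0.09 (adjusted p = 0.60). Slc25a41 and Slc25a54, relatives of the same branch that lie beside Slc25a23 and Slc25a24 on the assembly, stayed below the tested level, with means from 2.42 to 2.89 log2 units.

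**Figure D2:**
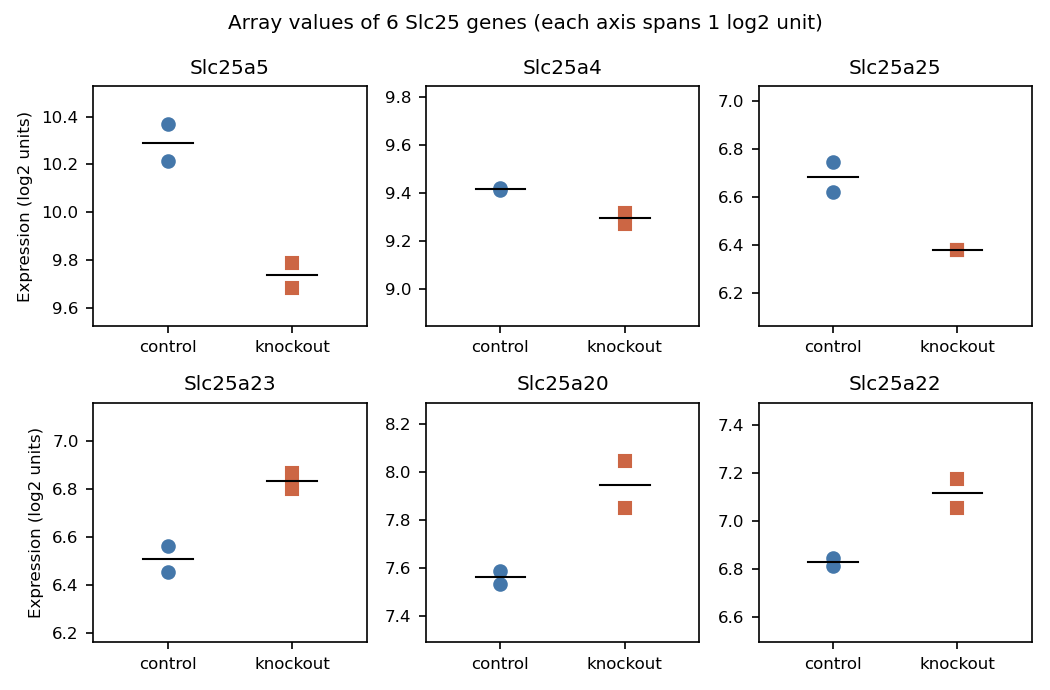
Expression (log2 units) of 6 carriers on each array, with circles for the 2 control arrays, squares for the 2 knockout arrays, a line at each mean and every axis spanning 1 log2 unit. Slc25a5, Slc25a4 and Slc25a25 lie lower and Slc25a23, Slc25a20 and Slc25a22 higher on both knockout arrays, and only Slc25a5 passed the adjusted threshold.

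The carriers of citrate and dicarboxylates link the citric acid cycle with cytosolic metabolism, and none of the 4 tested passed, nor had any an unadjusted limma p under 0.05. Slc25a1, the citrate carrier that delivers the carbon for fatty acid synthesis, read 8.55 and 8.56 in control and 8.41 and 8.35 in knockout, a difference of -0.17 (SE 0.09, 95% interval -0.39 to 0.04, adjusted p = 0.28). Slc25a11, the oxoglutarate carrier of the malate-aspartate shuttle, read 9.27 and 9.10 in control and 9.20 and 9.23 in knockout, with overlapping groups and a difference of 0.03 that turned to -0.01 when arrays were centred on their medians. Slc25a10, the dicarboxylate carrier, differed by -0.03 and Slc25a35 by -0.16, whereas Slc25a21 and Slc25a34 were below the tested level. A further feature, annotated to both Slc25a35 and Rangrf, was not used.

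Aspartate and glutamate carriers move amino groups and reducing power across the membrane. Slc25a22, a glutamate carrier, read 6.81 and 6.84 in control and 7.18 and 7.05 in knockout, a difference of 0.29 (SE 0.09, 95% interval 0.06 to 0.52, limma adjusted p = 0.13). Slc25a12, the aspartate/glutamate carrier aralar, read 9.22 and 9.23 in control and 9.39 and 9.44 in knockout, a difference of 0.19 (adjusted p = 0.25). Both genes were higher on every knockout array without passing. Slc25a13, the closely related citrin, read 8.82 and 9.05 in control and 8.82 and 8.84 in knockout, with overlapping groups and a difference of -0.10. Slc25a18, the other glutamate carrier, was below the tested level and ranged from 2.90 to 3.60 over the arrays.

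Among carriers of other amino acids, Slc25a15, which exchanges ornithine for citrulline, had the difference of greatest size. It read 5.96 and 6.21 in control and 5.90 and 5.73 in knockout, a difference of -0.27 (SE 0.12, 95% interval -0.58 to 0.03, adjusted p = 0.24), and the lowest control array lay just above the higher knockout array. Slc25a38, which brings glycine in for heme synthesis, differed by 0.09 and Slc25a44, a carrier of branched-chain amino acids, by -0.08, both with overlapping groups. Slc25a2 and Slc25a29, carriers of ornithine and basic amino acids, were below the tested level.

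Slc25a20 is the carnitine/acylcarnitine carrier, through which long-chain fatty acids enter the matrix for oxidation. It read 7.54 and 7.59 in control and 8.05 and 7.85 in knockout, so that both knockout arrays lay above both control arrays. The means were 7.56 ± 0.04 and 7.95 ± 0.14 (SD, n = 2 each), a difference of 0.39 (SE 0.10, 95% interval 0.13 to 0.65, limma adjusted p = 0.092), the largest positive difference in the family, and it did not pass. With a variance prior that follows the expression level and is robust to outlying genes, its adjusted p was 0.034. Its relative Slc25a45 read 8.41 and 8.46 in control and 8.66 and 8.66 in knockout, a difference of 0.22 (adjusted p = 0.19), Slc25a47 differed by 0.18 with overlapping groups, and Slc25a48 was below the tested level. All 3 tested genes of this group had a positive difference, though that of Slc25a47 turned negative without control replicate 1.

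The groups of 4 of the 5 tested carriers of cofactors and vitamins overlapped, as did those of 5610 of all 12542 tested genes. None of the 5 carriers passed, beside 6.79% of all tested genes called in either direction. Slc25a51, the NAD carrier, read 6.00 and 5.69 in control and 5.98 and 6.11 in knockout, a difference of 0.21 (SE 0.13, adjusted p = 0.39). Slc25a32, which carries folate or flavin, read 6.70 and 6.98 in control and 6.59 and 6.82 in knockout, a difference of -0.14 (SE 0.14, adjusted p = 0.59). Slc25a16 differed by -0.03 and Slc25a26, the carrier of S-adenosylmethionine, by -0.01, both with overlapping groups. Slc25a17, a peroxisomal carrier of coenzyme A and flavin, differed by 0.11 (adjusted p = 0.48), with both knockout arrays above both control arrays.

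Slc25a42, the mitochondrial coenzyme A carrier, was the dim member with the most separate groups. It read 3.65 and 3.68 in control and 3.32 and 3.10 in knockout, a difference of -0.45 log2 units. Its control mean of 3.66 was above the level required for testing and its knockout mean of 3.21 below it. Fitted without the filter, it had an adjusted p of 0.15, and the adjusted p of the other 10 untested carriers was between 0.66 and 0.93.

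The pyrimidine nucleotide carriers Slc25a33 and Slc25a36 supply precursors for mitochondrial DNA and RNA, and their knockout arrays lay on opposite sides of the control arrays without passing. Slc25a33 read 6.50 and 6.63 in control and 6.38 and 6.36 in knockout, a difference of -0.20 (SE 0.09, adjusted p = 0.26). Slc25a36 read 6.61 and 6.79 in control and 6.88 and 6.88 in knockout, a difference of 0.18 (SE 0.10, adjusted p = 0.34). Their promoters share the string CACGTG, an E-box, and are shown for that reason with the motifs in capitals: CACGTG in both and TGACGTCA, the palindromic CRE, in Slc25a36 alone. The sequences are the 250 bases before the start site from RefSeq (GRCm38.p6), chr4:149774268-149774517 on the minus strand for Slc25a33 and chr9:97111042-97111291 on the minus strand for Slc25a36.
Slc25a33: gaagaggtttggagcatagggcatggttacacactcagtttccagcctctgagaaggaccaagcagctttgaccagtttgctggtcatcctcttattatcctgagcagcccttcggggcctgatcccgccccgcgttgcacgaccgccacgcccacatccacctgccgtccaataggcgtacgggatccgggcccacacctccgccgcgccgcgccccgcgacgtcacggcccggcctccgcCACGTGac
Slc25a36: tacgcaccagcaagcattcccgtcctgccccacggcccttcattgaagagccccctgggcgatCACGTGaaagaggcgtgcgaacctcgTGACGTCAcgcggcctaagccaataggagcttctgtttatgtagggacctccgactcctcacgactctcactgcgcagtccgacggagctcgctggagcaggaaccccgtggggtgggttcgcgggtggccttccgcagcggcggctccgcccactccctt

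Promoter windows of 300 bases, from 250 before to 50 after a start site, were on hand for 36 of the 46 carriers, with 46 windows in all because some genes have several starts. CACGTG occurred in 8 of these 46 windows (17.4%), against 7.15% of all 32851 promoter windows of the same length. Overlapping windows of Slc25a14 hold the same CACGTG, and that site is counted more than once. The windows of carriers were richer in G and C, with a median of 59.3% against 52.7%. The genes with CACGTG differed in both directions: Slc25a1 by -0.17, Slc25a13 by -0.10, Slc25a14 by 0.18, Slc25a15 by -0.27, Slc25a33 by -0.20 and Slc25a36 by 0.18, while Slc25a31 was not tested. On both strands, TGACGTCA occurred in 2 windows (4.35%, against 1.79% of all), a pair of GAAA strings with 2 bases between them, part of an interferon response element, in 2 (4.35%, against 3.44%), and TGATGNAA, a form of the amino acid response element, in 0 (against 3.97%). The searched strings do not overlap one another in the sequences shown. A match is a string of letters and not a bound site.

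None of the 4 iron and glutathione carriers passed, beside 6.79% of all tested genes called in either direction. In 2 of the 4 both knockout arrays lay below both control arrays (26.5% of all tested genes) and in 1 above (28.8%). Slc25a37, mitoferrin 1, which feeds iron to heme and iron-sulfur cluster synthesis, differed by 0.05 and Slc25a28, mitoferrin 2, by -0.10. Slc25a40 read 6.52 and 6.58 in control and 6.68 and 6.77 in knockout, a difference of 0.18 (SE 0.09, adjusted p = 0.29), and Slc25a39, the mitochondrial glutathione carrier and its close relative, read 8.32 and 8.38 in control and 8.23 and 8.20 in knockout, a difference of -0.13 (adjusted p = 0.41). Among the relatives of uncoupling proteins, Slc25a14 read 4.22 and 3.93 in control and 4.31 and 4.19 in knockout, a difference of 0.18 (SE 0.13, adjusted p = 0.44), Slc25a30 differed by 0.11 and Slc25a27 was below the tested level. The groups of Slc25a14 and Slc25a30 overlapped. Of the carriers of other or unsettled role, Slc25a53 read 3.79 and 3.85 in control and 3.78 and 3.51 in knockout, close to the tested level, a difference of -0.17 (SE 0.12, adjusted p = 0.43). Slc25a46, which sits in the outer membrane and takes part in mitochondrial fission, differed by -0.11 (adjusted p = 0.51).

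The 8 pairs of close relatives were picked after their values had been seen, with the calcium-regulated carriers each in 2 pairs. In 6 pairs the differences had opposite signs, and in 4 of the 6 the groups of neither gene overlapped. Over all tested genes, 48.7% had a negative difference. Both knockout arrays lay above both control arrays in 28.8% of all tested genes and below them in 26.5%. Slc25a4 and Slc25a5, and Slc25a23 and Slc25a24, differed in the same direction. In 1 pair, Slc25a23 and Slc25a25, the unadjusted 95% intervals were apart. The signs of Slc25a13 and Slc25a37 turned when a control array was left out. None of the differences within pairs was tested, and 1 of the genes in these pairs, Slc25a5, passed on its own.

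**Figure D3:**
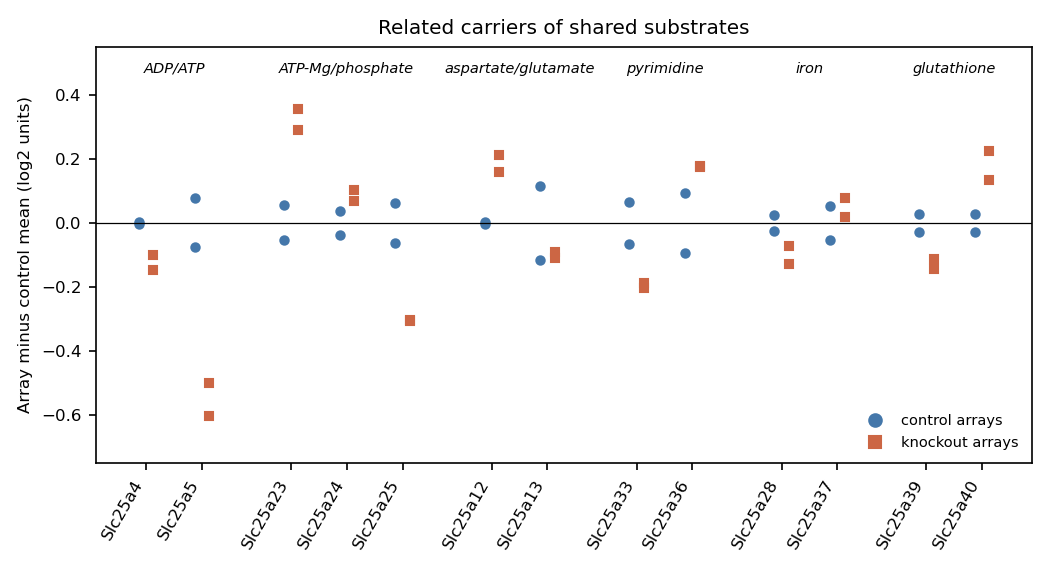
Each array's value minus the gene's control mean (log2 units) for related carriers grouped by substrate, with circles for control and squares for knockout arrays. Slc25a5 lies lowest, Slc25a23 and Slc25a25 lie on opposite sides of the control mean, and so do Slc25a33 and Slc25a36 and Slc25a39 and Slc25a40.

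Across the family, 12 of the 35 tested carriers had both knockout arrays below both control arrays (26.5% of all tested genes did) and 9 had both above (28.8% of all tested genes). The remaining 14 overlapped. Negative differences numbered 19 of 35, beside 48.7% of all tested genes, and with an array left out 9 carriers, none of them called, changed sign. For comparison, 65 of 73 tested oxidative phosphorylation subunits and 56 of 68 mitochondrial ribosomal proteins had negative differences, with medians of -0.13 and -0.14. Of these subunits 1 (1.37%) was called lower and of these ribosomal proteins 2 (2.94%), beside 3.49% of all tested genes. None was called higher, beside 3.3% of all tested genes. With quantile normalization, with median centring and with each array left out, 54 to 68 of 73 and 48 to 58 of 68 were below zero, whereas the count for carriers was 16 to 20 of 35 and the share over all tested genes 47.5% to 56.7%. These groups lay lower than the carriers on this measure; the difference was not tested.

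**Figure D4:**
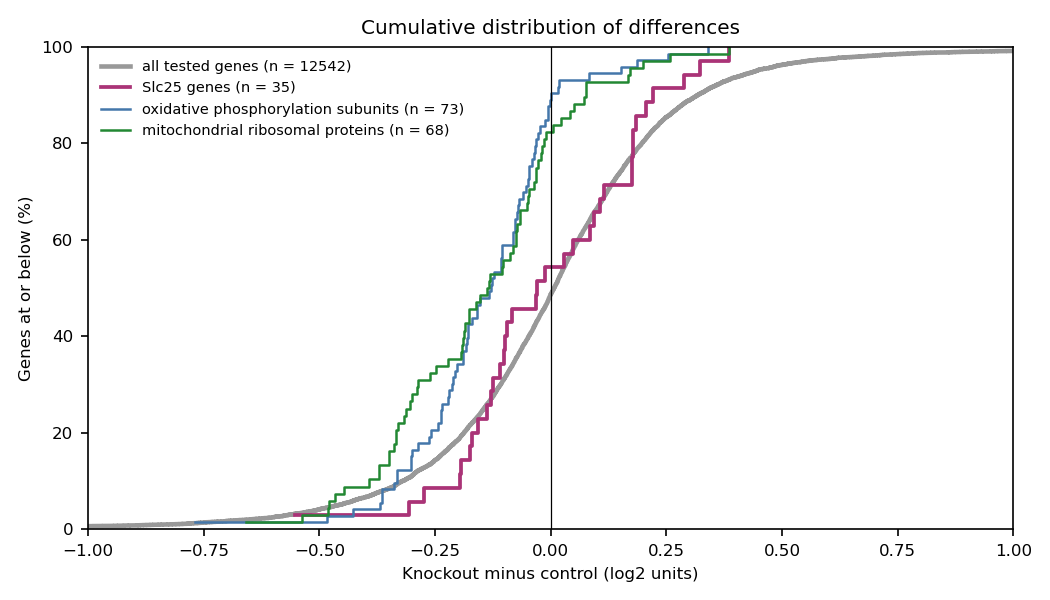
Cumulative share of genes (%) at or below a given knockout minus control difference (log2 units) for all 12542 tested genes, the 35 tested Slc25 genes, 73 oxidative phosphorylation subunits and 68 mitochondrial ribosomal proteins. The curve of the Slc25 genes runs near that of all genes, with medians of -0.03 and 0.01, while the other mitochondrial groups have medians of -0.13 and -0.14.

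Genes that import the carriers, that belong to the same transport step or that use the carried substrates were read from the same fit. Of 50 tested genes in 9 lists, 12 fell and none rose (limma; 21 lower and 2 higher at an unadjusted p under 0.05), beside 3.49% of all tested genes called lower and 3.3% called higher. Lists were written with earlier results in view, so this count is not independent evidence. With no filter on low values 4 of the 12 still passed (Alas1, Fasn, Mthfd1l and Mthfd2), the same 4 passed with the replicate number as a block, and with an array left out between 0 and 4 passed.

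In the import pathway 3 of 12 tested genes fell, and none of the 3 passed with no filter, with the replicate block or with any array left out. Tomm40, the pore of the outer membrane, read 8.24 and 8.20 in control and 7.64 and 7.78 in knockout, a difference of -0.52 (limma adjusted p = 0.039). Timm9, one of the chaperones that escort carriers through the intermembrane space, differed by -0.57 (adjusted p = 0.026), and Agk, a lipid kinase that is also a subunit of the TIM22 complex, by -0.55 (adjusted p = 0.028). Timm22, the insertion channel itself, differed by 0.16 and Tomm70a, the receptor for carriers, by -0.14, and neither passed. In a list of family relatives and other carriers under other symbols, 3 genes were tested and none passed. Mpc1, a subunit of the pyruvate carrier and not a family relative, differed by -0.47 (limma adjusted p = 0.064). Mtch1, a relative, differed by -0.37 (limma adjusted p = 0.073). None of the 3 voltage-dependent anion channels passed (2 had an unadjusted limma p under 0.05), with Vdac2 at -0.39 (adjusted p = 0.057).

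Some enzymes of the carried substrates fell where the carrier was not called. Whether an enzyme and its carrier differed from each other was not tested, here or for the genes below. Citrate synthase (Cs), which makes the substrate of Slc25a1, read 9.99 and 10.05 in control and 9.56 and 9.46 in knockout, a difference of -0.51 (limma adjusted p = 0.038). Fatty acid synthase (Fasn) differed by -1.08 (adjusted p = 0.0060), whereas ATP citrate lyase (Acly), which splits the exported citrate, differed by -0.15 (adjusted p = 0.405). Of 4 tested enzymes of mitochondrial folate metabolism, 3 fell: Mthfd1l by 1.06, Mthfd2 by 0.99 and Shmt2 by 0.70 log2 units. Slc25a32 overlapped between groups, as described above. Of 4 tested enzymes of ornithine and arginine metabolism, 3 fell. Arg1 differed by -0.89 (limma adjusted p = 0.044) and Arg2, the mitochondrial arginase, by -0.86 (limma adjusted p = 0.032). Odc1, ornithine decarboxylase, differed by -0.60 (limma adjusted p = 0.028). The remaining enzyme, Oat, differed by -0.07 (limma adjusted p = 0.77) with overlapping groups. The ornithine carrier Slc25a15 differed by -0.27.

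Alas1, the enzyme that condenses glycine with succinyl-CoA at the start of heme synthesis, read 9.56 and 9.53 in control and 8.69 and 8.61 in knockout, a difference of -0.89 (limma adjusted p = 0.0093). The remaining 5 tested genes of its list did not pass, and the glycine carrier Slc25a38 differed by 0.09. None of the 8 tested genes of the carnitine shuttle and fatty acid oxidation passed (1 had an unadjusted limma p under 0.05). Cpt1a, the outer membrane step before Slc25a20, read 9.12 and 9.05 in control and 9.41 and 9.45 in knockout, a difference of 0.34 (SE 0.09, adjusted p = 0.081), while Cpt2, the step after it, differed by -0.19. Of 5 tested genes of the malate-aspartate shuttle and glutamate entry none passed (2 had an unadjusted limma p under 0.05), with Mdh2 at -0.40 (adjusted p = 0.054) and Got1 at 0.25 (adjusted p = 0.15).

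**Figure D5:**
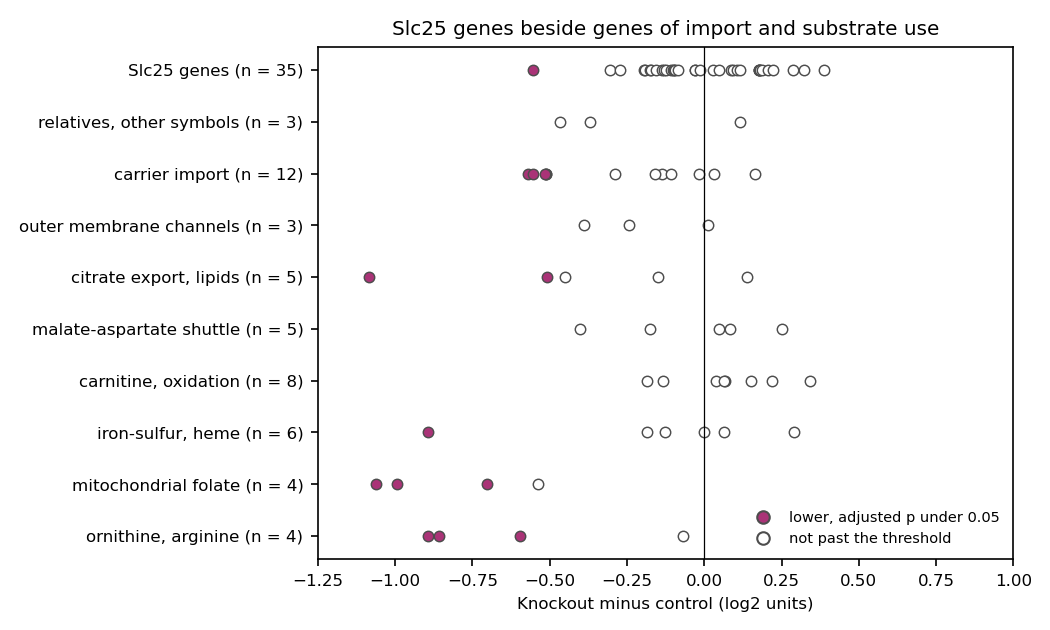
Knockout minus control difference (log2 units, horizontal axis) of the 35 tested Slc25 genes in the top line and of 50 tested genes of import and substrate use in the lines under it, 1 circle per gene, filled where the adjusted p was under 0.05. The carriers lie between -0.55 and 0.39 with 1 filled circle, and the folate and ornithine lines hold 3 filled circles each.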

How the data were processed

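The deposited table holds 1 log2 expression value per feature and array. Per the series' design text, the authors adjusted the background, normalized the arrays and took log2 with the RMA algorithm; oligo is also named in the submitters' processing notes, with no version. The genome build is not given in the sources used here. Because arrays were normalized to each other, a change in RNA content per cell would not show. Depth does not apply to arrays, and their number limits the precision.

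Of 41345 features, 23521 had 1 symbol, 1814 several and 16010 none in the platform annotation. For each gene the feature with the highest mean was used, and genes whose mean reached 3.53 log2 units were tested. Knockout and control were compared with limma 3.58.1 in R 4.3.3 (lmFit, eBayes, no block, two-sided, Benjamini-Hochberg adjustment over 12542 genes, threshold 0.05), with 2 residual and 3.51 prior degrees of freedom. The limma comparison was tested on simulated data with changes larger than any carrier difference. Smaller changes were not simulated, and the other steps were not tested in this way.

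Values of every array are given for carriers past the threshold, the largest difference of each role list, the 5 highest means and the 5 largest differences; further carriers, and the pairs of relatives, were named after their values were seen. Among other genes, those past the threshold and the largest difference of each list were named by rule and the rest afterwards. The members and lists were chosen with earlier results of these data known. The planned description of protein sequences was not run. Promoters came from RefSeq (GRCm38.p6), and the gene IDs of all 46 carriers matched its table. Levels of different genes were not compared, since probes differ.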

Additional observations from a re-analysis of the deposited data

How the results depend on the processing

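Under 12 alternatives, Slc25a5 kept a negative difference in each, between -0.63 and -0.48, and the count of carriers lower in knockout stayed at 1 in 6 of them. It was 0 with no filter (adjusted p = 0.089), 0 with the replicate number as a block (adjusted p = 0.072) and 0 with any 1 array left out. The count of carriers higher in knockout was 1 (Slc25a20) with limma-trend and robust estimation, and 0 with each other alternative. Over all genes, 414 were higher and 438 lower as reported, 179 and 154 with no filter, 644 and 710 with the stricter filter, 789 and 801 with limma-trend and robust estimation, and 168 and 144 with the replicate block. With each array left out they were 50 to 119 and 43 to 76. Centring the arrays on their medians moved the share of higher calls from 48.6% to 39.4% of the calls, and leaving out control replicate 1 moved it to 68.4%. Slc25a11, not called, turned from 0.03 to -0.012 with median centring and lay between -0.055 and 0.114 with an array left out. Same-numbered arrays did not deviate together (r = -0.03 over all features), so the numbers were not taken as pairs. The fits with an array left out had fewer samples, and the fit with no filter tested more genes. The cause of the changes under the alternatives was not tested.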
